A study of Danio rerio with 13 samples.

Results

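The *hlk* T-ALL program is described here as the genes that set 3 arrays of *hlk* leukemia apart from 10 arrays of *hMYC* leukemia, out of 13 arrays in all. Of 15502 probe sets on the zebrafish array (control probe sets left out), 1236 were higher on every *hlk* array than on every *hMYC* array, which is 7.97% of those tested. These 1236 are the main subject. They were chosen by this separation, so their separation is a description and not a result.

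*hlk* is a heritable zebrafish line that develops T cell acute lymphoblastic leukemia (T-ALL), here carried with *lck:eGFP*, in which the *lck* promoter drives GFP. The *hMYC* fish carry *rag2:hMYC*, human MYC under a promoter of immature lymphocytes, together with the same *lck:eGFP*. Every array holds RNA of GFP+ cells, bright and dim together, sorted from the body without the head of 1 adult fish with ALL, and no tamoxifen was given. P-values therefore measure the spread between fish. The 10 *hMYC* arrays are labelled *hMYC-1* (4 arrays) and *hMYC-2* (6 arrays), a division the study drew from these same arrays, so the 10 were pooled as 1 line. Line and MYC transgene go together in this design and cannot be told apart. Leukemia type follows line only in part, since the paper reports that *hMYC* fish develop T-ALL, pre-B cell ALL or both. For these arrays it predicted pure T-ALL in *hlk*, mostly T-ALL cells in *hMYC-1* and the most B cells in *hMYC-2*. The pooled *hMYC* arrays may therefore mix leukemia types, and that mix cannot be told apart from line either.

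T-ALL arises from T cell precursors in the thymus. These cells rearrange their T cell receptor genes with the Rag recombinase, receive Notch, Wnt and cytokine signals, and pass through stages governed by Gata3, Runx and Ets factors. In human T-ALL, Notch and MYC are among the best known drivers, and MYC in turn raises genes for nucleotide synthesis and ribosome assembly.

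Values are the deposited log2 levels, on which a difference of 1 is a doubling. Background is taken as 5.68, the highest value of the array's 17 tag control probe sets, and where a whole line lies at or below it only a lower bound on the fold is given. The median of all probe sets ran from 4.98 to 5.1 over the arrays. On *hlk* replicate 1 the GAPDH control probe sets had a 3′ minus 5′ gap of 4.69, against 1.09 to 2.49 on the other 12 arrays. This gap is a measure of RNA quality, and its part in the results was not tested. Correlations over probe sets were 0.955 to 0.975 among *hlk* arrays, 0.966 to 0.992 among *hMYC* arrays and 0.913 to 0.937 between the lines. Human MYC was not measured on the array, and the EGFP control probe set lay between 6.39 and 6.88 on all 13 arrays, near the 5.83 to 6.24 of the red fluorescent protein controls, so neither transgene could be checked.

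With limma (adjusted p under 0.05 by Benjamini-Hochberg over 15502 probe sets), 2056 probe sets were higher in *hlk* (13.3%) and 1729 were lower (11.2%). At a difference of at least 2-fold the counts were 535 higher (3.45%) and 736 lower (4.75%). Of the 1236 separated probe sets, 1192 passed limma and 425 differed by 2-fold or more. Their median difference was 0.77, against 0.05 over all probe sets. Limma tests the same values by which the 1236 were chosen, so these figures describe the choice and are no separate evidence for it. Another 1190 probe sets (7.68%) were lower on every *hlk* array. The balance of higher and lower calls depended on scaling: 54.3% of calls were higher in *hlk* as deposited and 63.2% after setting the array medians equal. After a shift to 3 housekeeping genes 29.8% were higher, and the median of all differences moved to −0.12. That shift was −0.43, 0 and 0.05 on *hlk* replicates 1, 2 and 3, and −0.14 to 0.28 on the *hMYC* arrays. Without *hlk* replicate 1 and *hMYC-1* replicate 3, the arrays that stand apart below, 1845 probe sets were higher and 1651 lower.

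The members fall into levels of very different reliability. On 578 of the 1236 probe sets all 13 arrays were above background, on 320 no *hlk* array was, and on 76 every *hlk* array was above background while every *hMYC* array was within it. The reverse pattern, *hMYC* above and *hlk* within background, was held by 200 probe sets. Of the 1236, 850 carry 1 gene symbol, 378 carry none and 8 carry several. The separated probe sets name 817 genes, 191 of which have several probe sets, and in 19 of these every probe set was separated. For *ehbp1* and *rgma* 1 probe set differed by 4.39 and 3.83 while the brighter one differed by 0.20 and 0.00, so both genes are left out below, where a gene is shown by its probe set of highest mean. The probe sets just inside the separation with at least 2-fold difference were those of *nsd2*, *rab32a* and *syne1b*, with gaps of 0.01, 0.01 and 0.02, and just outside lay *frg1*, *usp37* and *robo2* with gaps of 0.

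**Figure D1:**
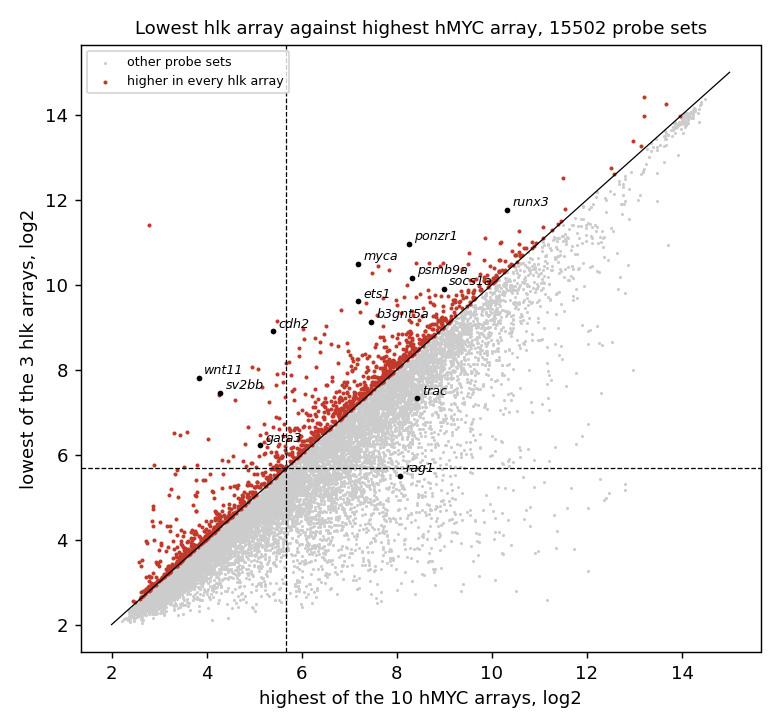
Each point is 1 of 15502 probe sets, with the highest of the 10 *hMYC* arrays on the horizontal axis and the lowest of the 3 *hlk* arrays on the vertical axis (log2), and dashed lines mark background at 5.68. The 1236 red points above the diagonal are higher on every *hlk* array, and *trac* and *rag1* lie below it.

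The largest difference of all belonged to a probe set without a gene symbol. It read 12.05, 11.46 and 11.41 on the *hlk* arrays and 2.52 to 2.78 on the *hMYC* arrays, a difference of 8.99 ± 0.11 (SE; limma adjusted p = 3e-15), or at least 62.2-fold over background. Another unnamed probe set read 9.65, 9.15 and 9.70 in *hlk* and at most 5.48 in *hMYC*. The gene behind either was not identified here.

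The 30 named genes with the largest differences spanned 3.45 to 6.07, and 10 of them were within background on all *hMYC* arrays. They include membrane and adhesion proteins, vesicle proteins of neurons, embryonic patterning genes and signaling inhibitors, beside *myca*, *gata3* and *ets1*. *hMYC-1* replicate 3 was the highest *hMYC* array in 27 of the 30.

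**Figure D2:**
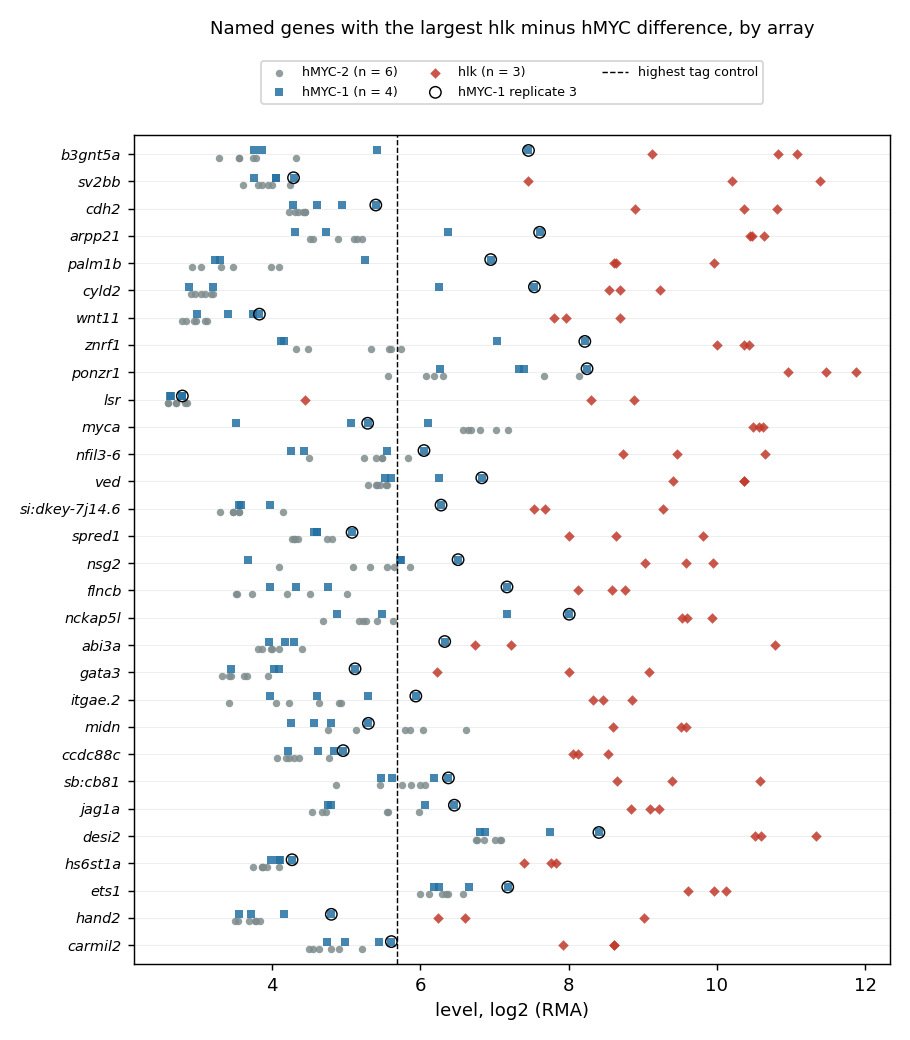
Levels (log2) of the 30 named genes with the largest *hlk* minus *hMYC* difference, 1 point per array, with *hlk* as red diamonds, *hMYC-1* as blue squares, *hMYC-2* as grey circles and background as a dashed line. *hMYC-1* replicate 3, ringed, is the *hMYC* array nearest to *hlk* in 27 of the 30 genes.

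*b3gnt5a*, whose mammalian counterpart starts the sugar chains of lacto-series glycolipids, read 9.13, 10.83 and 11.08 in *hlk* and 3.29 to 7.46 in *hMYC* (median 3.77), a difference of 6.07 ± 0.74 (SE; limma adjusted p = 3.88e-05). All *hMYC* arrays but *hMYC-1* replicate 3 were within background. *cdh2*, N-cadherin, an adhesion molecule of neural and mesenchymal cells, read 8.90, 10.37 and 10.81 in *hlk* and no more than 5.40 in *hMYC*, at least 20.4-fold higher (adjusted p = 4.03e-08). *lsr*, a protein of tricellular junctions, read 8.31 and 8.89 on *hlk* replicates 2 and 3 but 4.44 on replicate 1, and at most 2.85 in *hMYC*, so here the *hlk* arrays themselves fall apart. *itgae.2*, related to the integrin alpha E chain of mammalian intraepithelial T cells, read 8.5, 8.86 and 8.33 against a highest *hMYC* value of 5.94. *hs6st1a*, a heparan sulfate sulfotransferase, was the most even of the group, at 7.40, 7.83 and 7.76 in *hlk*. In *hMYC* it was within background at 3.74 to 4.27 (at least 3.94-fold higher in *hlk*, limma adjusted p = 6.27e-11).

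Over the 8793 named genes, 14.5% were higher in *hlk* and 12.6% lower, shares to set beside each list count below. Of 37 measured adhesion genes, 4 were higher (10.8%) and 8 lower (21.6%). Apart from *cdh2* the higher ones were within background on all arrays, as were 3 of the 8 lower. The junction genes *jam2a* and *jam3b* fell to 4.63 to 5.06 and 3.72 to 4.45 on the *hlk* arrays from 9.10 to 10.22 and 6.17 to 7.40 in *hMYC* (limma adjusted p = 3.33e-10 and 2.35e-06). *cadm2a*, a nectin-like molecule, was within background in *hlk* and at least 3.29-fold lower, and *jupa*, plakoglobin, fell by 2.73. Glycosylation genes were split, with 5 higher and 5 lower of 37, and 1 of the lower was within background on all arrays. Among the lower ones, *b3gnt7l* was at 4.70, 6.85 and 6.13 in *hlk* and 6.97 to 9.03 in *hMYC*, opposite in direction to *b3gnt5a*.

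Vesicle and neuronal genes were represented by few members. *sv2bb*, a synaptic vesicle glycoprotein, read 7.45, 11.39 and 10.20 in *hlk* and 3.61 to 4.29 in *hMYC*, at least 16.0-fold higher (adjusted p = 2.99e-06), and *nsg2*, a neuronal vesicle trafficking protein, read 9.03, 9.59 and 9.95 against 3.67 to 6.51. Of 32 synaptic genes measured, 5 were higher (15.6%) and 2 lower (6.25%), beside 14.5% and 12.6% of named genes. Of the 5, 2 were within background throughout. Of 23 neuron markers, 3 were higher and 1 lower, and 20 were within background on all 13 arrays, including 2 of the 3.

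Transcription factors of T cells differed in both directions. *gata3*, required for commitment to the T lineage, read 9.08, 6.22 and 8.0 in *hlk* and was within background on all *hMYC* arrays (3.32 to 5.12), at least 4.26-fold higher (adjusted p = 3.16e-05). *ets1* read 9.61, 10.12 and 9.96 against 6.0 to 7.18, a difference of 3.50 ± 0.20 (SE; adjusted p = 2.8e-08). *runx3*, which directs cytotoxic T cells in mammals, was already well above background in *hMYC* at 7.29 to 10.32 and rose to 11.76, 11.90 and 12.04 in *hlk* (adjusted p = 0.00015). *id2a*, an inhibitor of E proteins, rose by 1.73. The E protein gene *tcf12* fell to 5.18, 7.08 and 6.50 from 8.40 to 8.93, and *klf2a*, a factor of quiescent T cells in mammals, read 4.70, 5.17 and 8.61 against 9.32 to 10.71, so that *hlk* replicate 3 lay close to *hMYC*. Of 27 such factors measured, 5 were higher (18.5%) and 7 lower (25.9%), beside 14.5% and 12.6% of named genes. Among the lower were *sox4a*, *id3* and *egr2b*. In each direction 1 of the called factors was within background on all arrays. The calls of *id3* and *egr2b* were each lost when any 1 of 9 arrays was left out, with adjusted p up to 0.193 and 0.156, and that of *sox4a* without *hlk* replicate 2 or 3 (up to 0.0964).

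Genes mutated or overexpressed in human T-ALL were also measured, with 9 higher (16.4%) and 5 lower (9.09%) of 55. All named genes gave 14.5% and 12.6%, and 26 of the 55 were within background on all arrays. *ezh2*, the methyltransferase of Polycomb complex PRC2, read 9.26, 9.12 and 9.66 against 7.47 to 8.30 (1.52 ± 0.16, limma adjusted p = 9.32e-06). *etv6*, an Ets family repressor, rose by 1.11 (adjusted p = 0.000209). *lmo4b*, a LIM-only protein gene, fell to 6.58, 6.63 and 5.94 from 8.05 to 9.58.

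*ved*, a homeobox repressor of the early zebrafish embryo, read 9.41, 10.37 and 10.37 against 5.30 to 6.83 (4.36 ± 0.30, limma adjusted p = 1.53e-07). *nfil3-6*, of the bZIP family of Nfil3, read 10.65, 9.47 and 8.73 against 4.25 to 6.05. *hand2*, a bHLH factor of heart and limb, read 9.02, 6.24 and 6.61 and was within background in *hMYC*, with a highest value of 4.80. Picked after their values were seen, *irx7*, *mef2aa* and *sox11a* were also separated, at least 1.91-fold and 5.74-fold higher for *irx7* and *mef2aa*, and 3.3 higher for *sox11a*, which exceeded background in *hMYC* on *hMYC-1* replicate 3 alone (5.83).

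T cell receptor genes were thinly covered. *lck*, *lat*, *zap70*, *cd247*, *itk*, *tcf7*, *cd8a* and *il7r* are paired with no probe set of their own in the annotation used here and were not analysed, and 15 of a list of 65 were. Of these, 4 were higher (26.7%) and 3 lower. *trac*, the constant region of the receptor alpha chain, read 9.89, 7.33 and 9.93 in *hlk*. In *hMYC* it ran from 4.04 to 8.43 with a median of 4.50, and the 8.43 of *hMYC-1* replicate 3 lay above *hlk* replicate 2. The difference was 3.93 ± 0.83 (SE; limma adjusted p = 0.00336; exact two-sided permutation p = 0.014, adjusted 0.014 over 5 genes), but 2 other probe sets of *trac* differed by only 0.57 and 0.37 and did not pass. Against the *hMYC-1* arrays alone the adjusted p of *trac* was 0.109. *nck1b*, an adaptor that links the receptor to actin, read 9.45, 9.57 and 9.36 against 5.12 to 7.23 (adjusted p = 3.87e-06), and *cblb*, a ubiquitin ligase that restrains receptor signaling, rose by 1.41. *ptprc*, the CD45 phosphatase, was 0.79 higher with an adjusted p of 0.0471, a call lost when any 1 of 9 arrays was left out (adjusted p up to 0.135).

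The lower members of the receptor list were *prkcha*, *malt2* and *csk*. *prkcha*, a protein kinase C that the study counts as a T cell gene, was within background in *hlk* (3.28 to 3.78) and above it on all *hMYC* arrays (6.04 to 7.40). *lmo2* is an oncogene of human T-ALL that B cells also express in humans. In other zebrafish samples, the paper reports more *lmo2* in B than in T cells, normal and leukemic. Here *lmo2* was within background in *hlk* (3.32 to 3.70) and above it on 7 *hMYC* arrays (4.93 to 6.43 over all), at least 1.1-fold lower. Of 4 analysed genes from a T cell panel of the study, which holds both, 2 were higher (*runx3* and *trac*) and 2 lower. In bulk samples such as these, fewer cells of a type and less RNA per cell cannot be told apart.

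Genes of V(D)J recombination were higher or did not pass. Of 13 measured, 6 were higher (46.2%, against 14.5% of named genes) and 0 lower by limma (0 lower also at an unadjusted p under 0.05, and 0 lower with 5 higher by the shrinkage t), with a median difference of 0.15 over the list against 0.06 over all named genes.  *dclre1c*, encoding Artemis, which opens the hairpin ends, read 7.05, 8.40 and 8.18 against 5.0 to 6.0 (2.53 ± 0.24, adjusted p = 3.48e-06). *polm*, a DNA polymerase that fills the joined ends, read 6.38, 8.16 and 8.19 against 4.35 to 5.72. In both, *hlk* replicate 1 was the lowest *hlk* array. *hmgb1a*, *hmgb1b* and *xrcc6* rose by 0.70, 0.70 and 0.60.

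*rag1* itself was uneven. It read 5.50, 11.16 and 10.53 on *hlk* replicates 1, 2 and 3, 6.22 to 8.07 on the *hMYC-1* arrays and 4.64 to 6.25 on the *hMYC-2* arrays. The difference was 3.01 with a limma adjusted p of 0.0492, which was lost when any 1 of 10 arrays was left out (up to 0.258), and it ranged from 1.96 to 4.79 when single arrays were left out. *rag2* did not follow it, at 5.1, 6.86 and 7.95 in *hlk* and 5.21 to 8.09 in *hMYC* (difference −0.77, adjusted p = 0.389). On the array with the wide GAPDH gap, *hlk* replicate 1, both *rag1* and *rag2* were within background. Since *lck* was not analysed, likeness was taken to *rag1*: over 13 arrays, whose values also follow line and RNA quality, the closest were *uri1* (r = 0.965), *pdgfab* (0.949) and *hp* (0.920).

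**Figure D3:**
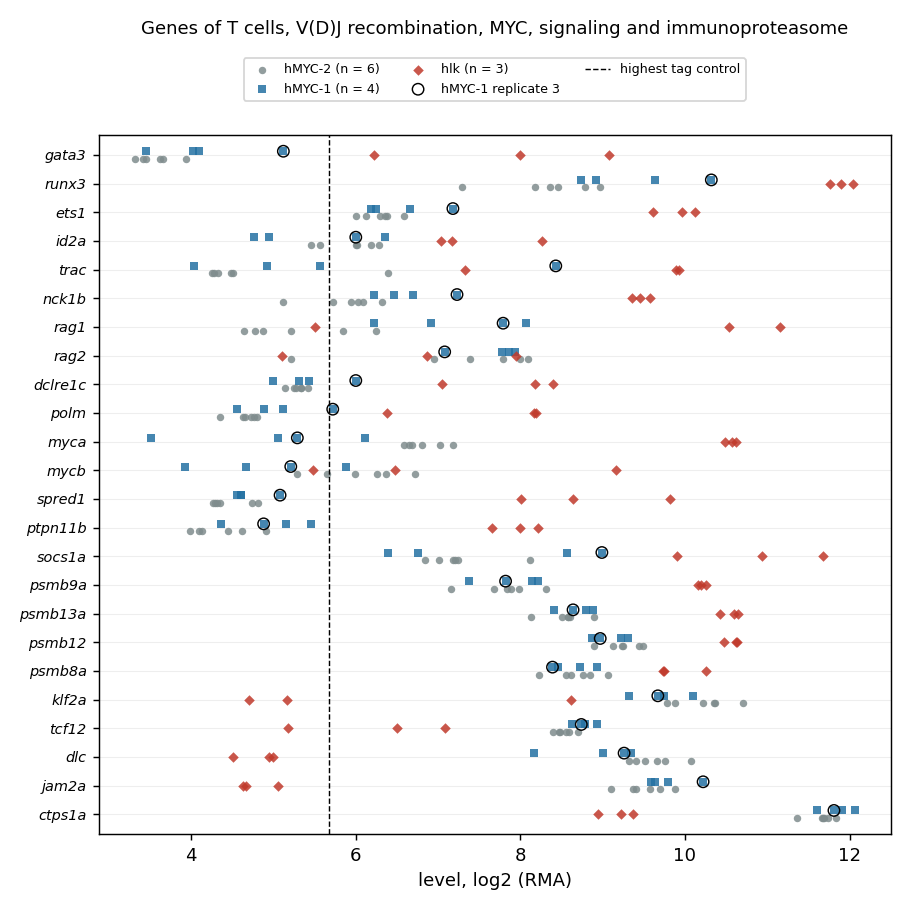
Levels (log2) of 24 genes by array, with *hlk* as red diamonds, *hMYC-1* as blue squares, *hMYC-2* as grey circles, *hMYC-1* replicate 3 ringed and background as a dashed line. *myca* is tight in *hlk* (10.49 to 10.62), *rag1* is split in *hlk* (5.50, 10.53 and 11.16), and *trac* overlaps through 1 ringed *hMYC-1* array.

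Of the Myc family genes shown here, *myca* alone passed limma. *myca*, the zebrafish counterpart of MYC, read 10.49, 10.62 and 10.57 in *hlk*. In *hMYC* it read 3.51 to 6.11 on the *hMYC-1* arrays and 6.58 to 7.18 on the *hMYC-2* arrays. The difference from the pooled line was 4.47 ± 0.62 (SE; limma adjusted p = 0.000125). *mycb* did not pass (adjusted p = 0.139), with 6.48, 9.16 and 5.48 in *hlk*. *mycn* was within background on all 13 arrays, and *mych* (chosen after its values were seen) differed by −2.09, with means of 7.49 in *hlk* and 9.58 in *hMYC*, and did not pass (adjusted p = 0.0506).

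Genes that MYC is known to raise were mostly lower in *hlk*. Line, MYC transgene and mix of leukemia types cannot be told apart here. Of 79 measured, 49 were lower (62.0%, against 12.6% of named genes) and 2 higher, with a median difference of −0.48. *ctps1a*, which makes CTP, read 9.22, 9.37 and 8.94 in *hlk* and 11.36 to 12.06 in *hMYC* (−2.56 ± 0.13, adjusted p = 5.18e-09). *ppat*, of purine synthesis, *eif4ebp1*, an inhibitor of translation, and the nucleolar genes *lyar* and *mybbp1a* fell by 1.54, 1.65, 1.37 and 1.35. The 2 exceptions were *bop1*, of ribosome assembly, at 8.0, 8.44 and 8.27 against 6.69 to 7.05, and *mthfd2*, of mitochondrial folate metabolism, at 8.69, 7.56 and 9.88 against 5.35 to 7.46, the latter named after its values were seen. *bop1* has 4 probe sets, and only that of highest mean is reported here. Ribosomal protein genes differed little, with 1 higher and 5 lower of 69 and mean levels of 13.81 to 13.89 in *hlk* and 13.87 to 13.94 in *hMYC*.

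Beside 14.5% and 12.6% of named genes, oxidative phosphorylation genes were split, 9 higher (13.6%) and 6 lower (9.09%) of 66. Immediate early genes, which rise within minutes of stimulation, gave 4 and 4 of 35. The mean level of the latter was 7.95 to 8.16 in *hlk* and 7.07 to 9.57 in *hMYC*, so the *hlk* arrays lay inside the *hMYC* range. Few replication and mitosis genes passed. Of 46 replication genes 4 were higher (8.70%) and 2 lower (4.35%), among them *cdc45*, a part of the replicative helicase, at 7.33, 6.35 and 6.88 against 4.67 to 6.12. Of 45 mitosis genes 0 passed limma (0 also at an unadjusted p under 0.05 and 0 by the shrinkage t), and the mean level of that list varied as much within each line, from 5.90 to 7.36 in *hlk* and 5.95 to 7.31 in *hMYC*. Of 43 apoptosis genes, 7 were lower (16.3%) and 3 higher (6.98%). The BH3-only gene *bik* was within background in *hlk* (4.61 to 5.25) and at 6.97 to 9.33 in *hMYC* (adjusted p = 0.000166), and *bbc3* and *ccng1*, known targets of p53, fell by 1.59 and 1.91, the call of *bbc3* being lost without *hlk* replicate 3 (adjusted p = 0.0807). *bcl2l1*, the counterpart of BCL-XL, rose by 0.81, to 6.87, 7.67 and 7.43 from 6.24 to 6.82. *bbc3* was named after its values were seen.

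*spred1*, an inhibitor of Ras, read 8.01, 9.82 and 8.64 in *hlk* and was within background in *hMYC* (4.27 to 5.08), at least 8.82-fold higher (limma adjusted p = 9.94e-08). Other probe sets of *spred1* differed by 0.82 (adjusted p = 0.0088), 0.16 and 0.14, with none separated. *socs1a*, an inhibitor of JAK kinases, read 9.90, 11.68 and 10.93 against 6.39 to 8.99 (3.41 ± 0.51, adjusted p = 0.000241), and *socs3b*, of the same family, 8.38, 8.19 and 8.68 against 6.25 to 8.07. *dusp6*, a phosphatase of ERK, was 1.39 higher by the probe set shown, but its call was lost when any 1 of 5 arrays was left out and another probe set differed by −0.08 and did not pass. The list of 41 Ras-MAPK genes held 10 higher (24.4%) and 7 lower (17.1%), beside 14.5% and 12.6% of named genes. *ptpn11b*, encoding a SHP2 phosphatase that promotes Ras signaling, was within background in *hMYC* (3.99 to 5.45) and at 8.0, 8.21 and 7.65 in *hlk*, at least 4.82-fold higher. Of *shc1* and *rasgrp3*, which also promote Ras signaling, *shc1* fell by 1.84. *rasgrp3* was within background in *hlk* and at least 1.83-fold lower.

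Cytokine pathway genes were evenly split, 5 higher and 5 lower of 23, with 1 in each direction within background on all arrays. The kinases changed in opposite directions: *jak1* rose to 9.75, 9.39 and 9.23 from 8.36 to 8.95, and *jak2a* fell to 7.78, 8.19 and 8.19 from 9.32 to 9.99 (adjusted p = 0.000161 and 2e-06). *tgfbr2b*, a receptor of TGF-beta, was within background in *hlk* (3.65 to 4.98) and at 7.18 to 9.71 in *hMYC*, at least 8.5-fold lower. Of 12 chemokine and trafficking genes, 3 were lower (25.0%) and 1 higher (8.33%), the higher one within background on all arrays. Among the lower, *cxcr4a* read 6.22, 5.1 and 5.91 against 10.98 to 12.47, and *cxcr4b* 8.63, 9.0 and 9.09 against 10.82 to 12.26.

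Notch receptors gave no difference to report, *notch1a* and *notch1b* being within background on all arrays. Of 38 Notch genes 3 were higher (7.89%) and 1 lower (2.63%), and 1 of the 3 was within background throughout. The ligand *jag1a* read 8.84, 9.10 and 9.22 against 4.54 to 6.46 (3.74 ± 0.38, adjusted p = 7.7e-06), and the feedback gene *nrarpa* 7.03, 5.97 and 6.73, with *hMYC* within background (at least 1.87-fold higher). The ligand *dlc* went the other way, within background in *hlk* (4.51 to 4.99) and at 8.17 to 10.07 in *hMYC*, at least 12.7-fold lower. Of 50 Wnt genes 7 were higher (14.0%, against 14.5% of named genes) and 1 lower, but 4 of the 7 were within background throughout. The others were *wnt11*, a ligand of noncanonical signaling, at 8.70, 7.97 and 7.81 against 2.79 to 3.83 (at least 5.58-fold higher, adjusted p = 3.7e-09), *ctnnb2*, a beta-catenin, at 9.63, 9.65 and 9.87 against 7.06 to 7.99, and *axin1*, 0.92 higher. *ccdc88c*, which binds Dishevelled, read 8.06, 8.53 and 8.13 and was within background in *hMYC*.

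Immunoproteasome genes rose together and lie side by side. This form of the proteasome cuts proteins into peptides for MHC class I. *psmb9a* read 10.20, 10.25 and 10.16 in *hlk* and 7.16 to 8.31 in *hMYC* (2.36 ± 0.20, adjusted p = 1.41e-06). *psmb13a* read 10.43, 10.64 and 10.59 against 8.13 to 8.90, *psmb12* 10.63, 10.48 and 10.62 against 8.87 to 9.49, and *psmb8a* 9.73, 9.74 and 10.26 against 8.23 to 9.07. In a list of 18 interferon and immunoproteasome genes 9 were higher (50%, against 14.5% of named genes) and 1 lower. Of the 9, 2 were within background throughout. Outside the proteasome, *trim25* and *gbp1* rose by 1.06 and 1.15. The 4 proteasome genes and *brd2a* formed 1 of the 2 longest runs of neighbours, with 5 measured genes in a row (order from the RefSeq gene table of GRCz12tu, since the files name no build). Not every probe set of *brd2a* was separated: some differed by 0.76 and 0.81 and did not pass (limma adjusted p = 0.278 and 0.0502).

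Such runs were counted for all members. Of 8719 named genes with a place in that table, 747 were separated, and they formed 71 runs of at least 2 and 10 runs of at least 3. Over the 8793 named genes 8.54% were separated, so some runs form by order alone. How many runs as many genes in random order would give was not computed. Runs of genes lower in *hlk* were not counted. The run of *b3gnt5a* went on with *ly75*, an endocytic receptor (7.63, 9.51 and 9.57 against 5.53 to 6.84), and *ptp4a1*, a phosphatase (9.77, 10.00 and 10.43 against 8.07 to 8.49). *cdh2* lay between *nfkbiaa* and *psma8*, which differed far less, by 0.97 and 0.41, and *nfkbiaa* did not pass (adjusted p = 0.0519). By chromosome of that table, the share of separated genes was highest on chromosome 19, which carries the proteasome run, with 55 of 373 (14.7%), and lowest on chromosome 21 with 20 of 359 (5.57%).

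The *hlk* arrays also differed from each other by chromosome, a pattern looked for after values were seen. For each array and chromosome the median was taken over genes of the level minus the mean of the *hMYC* arrays (for an *hMYC* array, of the other 9), over 2987 genes with a mean above 7, 74 to 169 per chromosome, each array centred on its own median. On the 10 *hMYC* arrays all 25 medians lay between −0.09 and 0.09. *hlk* replicate 3 gave 0.52 on chromosome 18, 0.31 on chromosome 11 and −0.29 on chromosome 17. *hlk* replicates 1 and 2 gave 0.29 and 0.41 on chromosome 24, where replicate 3 gave −0.07, and replicate 2 gave 0.18 on chromosome 18 and −0.14 on chromosome 11, opposite to replicate 3. On chromosome 19 all 3 *hlk* arrays lay above the *hMYC* band, at 0.12, 0.24 and 0.10. Chromosomes 4 (−0.18, −0.12 and −0.08) and 23 (−0.07, −0.14 and −0.10) left the band on only some *hlk* arrays. The band holds deviations of *hMYC* arrays from their own line, so it does not measure the spread of a difference between lines. On *hlk* replicate 3, 68 of the 107 chromosome 18 genes (63.6%) were above every *hMYC* array, against 29.2% of genes elsewhere. So over these 2987 genes the departures on chromosomes 11, 18 and 24 differed between the *hlk* fish, and the one on chromosome 19 was seen in all 3. Over all 8719 genes, most of them near background, the departures were smaller, with the *hMYC* medians between −0.03 and 0.03. Replicate 3 gave 0.12 on chromosome 18, 0.14 on chromosome 11 and −0.04 on chromosome 17. Replicates 1 and 2 gave 0.10 on chromosome 24. Chromosome 19 gave 0.05, 0.09 and 0.03 on *hlk* replicates 1, 2 and 3, so replicate 3 lay at the edge of the *hMYC* medians. Chromosome 4 gave −0.10, −0.08 and −0.05, outside them on all 3. *myca* and *ets1*, on chromosomes 24 and 18, were level over the 3 *hlk* arrays (10.49 to 10.62 and 9.61 to 10.12).

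**Figure D4:**
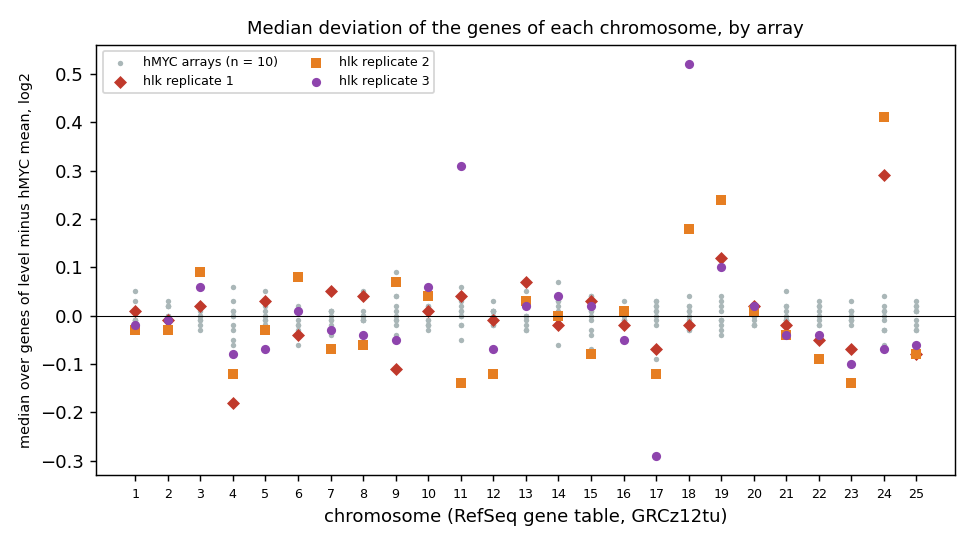
For each chromosome of the RefSeq gene table (horizontal axis), the median over its genes of the level minus the *hMYC* mean (log2, vertical axis), with 1 point per array. The *hMYC* arrays stay between −0.09 and 0.09, and the *hlk* replicates leave that band farthest on chromosomes 18 (replicate 3, 0.52) and 24 (replicates 1 and 2, 0.29 and 0.41), while all 3 leave it on 19 (0.12, 0.24 and 0.10).

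One *hMYC* array, *hMYC-1* replicate 3, came nearer to *hlk* than the others. Its GAPDH 3′ minus 5′ gap of 2.49 was the widest of the *hMYC* arrays, which started at 1.1. The parts of RNA quality and of the mix of leukemia types in this likeness were not tested. Among the 425 members with at least 2-fold difference, *hMYC-1* replicate 3 was the highest *hMYC* array in 172 (40.5%), against 16.6% over all probe sets, and 47 of the 425 (11%) were at least 1 above the mean of the other 9 *hMYC* arrays there, against 1.05% of all probe sets. *hMYC-1* replicate 4 followed with 15 of 425. *cyld2* read 7.54 and 6.25 on these arrays and 2.88 to 3.21 on the other 8. *znrf1*, a ubiquitin ligase, read 8.22 and 7.04 there and 4.12 to 5.74 elsewhere in *hMYC*. Some genes lower in *hlk* were also nearer to *hlk* on *hMYC-1* replicate 3. Of 624 probe sets lower on every *hlk* array and by 2-fold or more, 47 were at least 1 below the other *hMYC* arrays there. The other *hMYC* arrays gave 2 to 15. *pax5* read 7.51 on *hMYC-1* replicate 3, the lowest *hMYC* value, and *spi1b* read 8.26. Neither was at *hlk* levels, which did not exceed 4.90 and 4.81. On the *hlk* side, replicate 1 was the lowest *hlk* array in 180 of the 425 (42.4%) and in 31.7% of all probe sets.

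B lineage genes give the other end of the contrast. Of 12 measured, 11 were lower in *hlk* (91.7%) and 1, *ptpn6*, was higher. Among the 11, 1 was within background on all arrays. The mean level of the list was 5.79 to 5.87 in *hlk* and 8.11 to 9.25 in *hMYC*, and 8 of the 12 were within background on every *hlk* array. *igl1c1*, an immunoglobulin light chain, fell at least 82.1-fold and *cd81a* at least 10.7-fold, while *ptpn6*, encoding the SHP1 phosphatase of many blood cells, read 9.91, 9.73 and 9.34 against 6.6 to 8.08. A list of MHC class II presentation genes, active in B cells and other antigen presenting cells, held 3 lower and 0 higher of 8 by limma. At an unadjusted p under 0.05, 1 was higher, and 0 by the shrinkage t. The list also holds the invariant chain gene *cd74a* and protease genes such as *ctss2.1* and *lgmn*, so its counts are not of class II chains alone. The class II gene *mhc2daa*, named after its values were seen, went the other way, 2.86 higher in *hlk* by mean. It was not separated, with 2.51 on its lowest *hlk* array and 2.78 on its highest *hMYC* array, both within background. The strongest fall of a named gene was that of *ncf1*, of the phagocyte oxidase, from 11.01 to 12.02 to at most 3.70. It stands among the neutrophil markers here, 4 of 10 of which were within background on all arrays. Of those 10, 3 were higher in *hlk* and 2 lower, and 2 of the 3 were within background throughout.

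Markers of other cell types were mostly within background. Over 13 such lists with 214 measured genes, 26 were higher (12.1%), 12 were lower (5.61%), and 160 were within background on all 13 arrays. The mean level of the erythroid list was 3.96 to 4.26 in *hlk* and 3.89 to 4.49 in *hMYC*, of the hepatocyte list 4.15 to 4.58 and 4.05 to 4.28, and of the skin list 3.94 to 4.58 and 3.72 to 4.13. Of 4 hepatocyte markers called higher, 3 were within background throughout. The macrophage list was split, with 4 of 12 higher and 4 lower, and its mean level was 5.66 to 5.94 in *hlk* and 6.04 to 6.68 in *hMYC*. As drawn up, it shares *spi1b*, *irf8* and *cd74a* with the B lineage list, and *spi1b* differed by −4.65. Its lower calls and mean level are therefore not separate from those of B lineage genes. The part of these cells in the results was not tested.

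**Figure D5:**
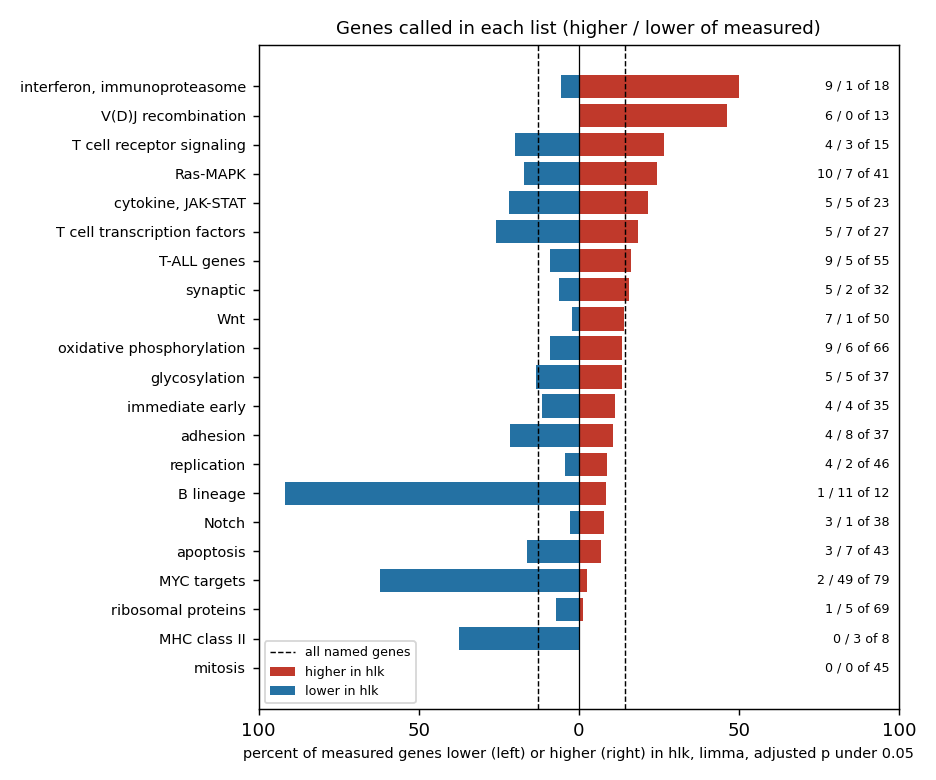
Share of the measured genes of each list drawn that passed limma (adjusted p under 0.05) as higher in *hlk* (red, to the right) or lower (blue, to the left), with counts at the right and dashed lines at the shares of all named genes, 14.5% and 12.6%. Among the lists drawn, the interferon and V(D)J lists have the highest red shares (50% and 46.2%), and the B lineage and MYC target lists the highest blue shares (91.7% and 62.0%).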

How the data were processed

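Levels were read on Affymetrix Zebrafish Genome Arrays from sorted GFP+ ALL cells. The deposited values are log2 RMA levels of probe sets, which the authors computed in a single justRMA run of all their arrays. Scanner files were not used here, and the 115 control probe sets were left out. Labels describe 1 fish per array.

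Symbols came from the array's annotation, updated by gene ID through RefSeq (10711 of 10795 probe sets with 1 symbol matched); probe sets with several symbols (135) or none (4572) were not named. They name 8793 genes, each shown by its probe set of highest mean.

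*hlk* (3 arrays) was compared with *hMYC* (10 arrays) by limma 3.58.1 in R 4.3.3 with 1 mean per line and Benjamini-Hochberg adjustment over 15502 probe sets, and the steps were tested on simulated data. Fold bounds are the mean of the brighter line minus the background of 5.68. SE is limma's. The number of arrays limits the precision.

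Members, gene lists and the naming rule were chosen with earlier results of these data known. The rule takes the 30 largest and 10 most negative differences among separated genes, and up to 6 genes of each list by smallest p. It also takes the study's measured T cell genes, Myc, Rag and Notch genes, and runs of neighbours. Other genes were named after their values were seen (*ptprc*, *sox4a*, *id3*, *egr2b*, *dusp6*, *irx7*, *sox11a*, *mef2aa*, *mthfd2*, *ptpn6*, *bbc3*, *mych*, *mhc2daa*). Alternatives were another mean structure, prior, array weights, shrinkage t, filter, floor, scaling, replicate block and left-out arrays. Promoter motifs were not analysed here, and some genes that the rule names are not reported here.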

Additional observations from a re-analysis of the deposited data

Results flagged for a closer look

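*myca* differed between the *hMYC* groups: the *hlk* excess over *hMYC-2* was smaller than that over *hMYC-1* by 1.83 (difference between the effects −1.83, limma with a mean per group, adjusted p = 0.048). Both effects share the *hlk* arrays, and the groups were drawn by the study from these arrays.

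In other genes 1 array lay far from the rest of its *hMYC* group by Dixon's criterion, which chance meets in about 1 in 20 groups. On *hMYC-1* replicate 3 *si:dkey-7j14.6* (6.28), *spred1* (5.08) and *abi3a* (6.33) were high for the group, on the side of *hlk*. On *hMYC-1* replicate 1 *xrcc6* was high (8.02) and *bop1* low (6.69), and on *hMYC-1* replicate 2 *eef1a1l1* was low (14.05). On *hMYC-2* replicate 5 *trac* (6.39) and *si:dkey-7j14.6* (4.15) were high. On *hMYC-2* replicate 1 *socs3b* (8.07) was high and *mybbp1a* (9.36), *psma8* (9.71) and *sptbn1* (10.41) were low. On *hMYC-2* replicate 6 *socs1a* (8.12) and *notch1b* (4.42, within background) were high, and *ptprc* on replicate 4 (8.5) and *ppat* on replicate 3 (9.56) were low.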

How the results depend on the processing

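Total counts of calls moved most with a 2-fold minimum, the *hMYC-1* arrays alone and a floor, and the cause was not tested unless named. Against 3785 changed probe sets (2056 higher in *hlk*, 1729 lower), a floor at background gave 2155 (1143 and 1012), the 4 *hMYC-1* arrays alone 1879 (867 and 1012; fewer samples) and a 2-fold minimum 1271 (535 and 736). The higher count alone moved to 1327 with the shrinkage t, 1343 after a filter on low values (fewer probe sets tested), 849 after the housekeeping shift, whose *gapdh* probe set lay within background on all *hMYC* arrays, and 1334 with the replicate block. All 849 of the housekeeping calls were among the 2056. Same-numbered arrays of *hlk* and *hMYC-1* correlated at −0.15, 0.10 and −0.13 and those of *hlk* and *hMYC-2* at 0.32, 0.23 and 0.24. Arrays of unlike number were not compared, so these values cannot decide whether the numbers mark pairs. The labels name no pairing, and the replicate number was not taken as such. Of the named genes, the block lost the calls of *ptprc*, *id3*, *egr2b*, *rag1* and *dusp6*. Separated probe sets numbered 500 after the housekeeping shift, 811 with the floor, 1990 against *hMYC-2* alone, and 1261 to 1955 without single arrays (1943, 1901 and 1955 without *hlk* replicates 1, 2 and 3, where fewer samples must be separated), against 1236. Leaving out single arrays gave 3273 to 3835 changed, 1810 to 2072 higher and 1403 to 1763 lower. The T cell receptor list had 4 genes higher (1 against *hMYC-1* alone, 3 to 4 without single arrays) and the B lineage list 11 lower (10 to 11). Runs of neighbours numbered 71, or 10 with at least 3 in a row. Direction turned only in differences that did not pass, and in single other probe sets of *nckap5l* (−0.09) and *dusp6* (−0.08). Among comparisons with another probe set of a named gene, 34 were the same, 14 weaker and 2 reversed. *notch1a* gave 0.01 with array weights, −0.38 to 0.16 without single arrays and, chosen after seeing the data, 0.17 without *hlk* replicate 1 and *hMYC-1* replicate 3 together. *mycn* gave −0.04 after the housekeeping shift and −0.02 to 0.34 without single arrays, and *actb1* −0.32 to 0.01. The promoter motif count was not run, since no promoter sequences were used here.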
